A study of Mus musculus with 50 samples.

Results

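Cyclin-dependent kinase inhibitors are the proteins that hold the cell cycle engine in check, and 7 genes encode the p21 (CIP/KIP) and INK4 families in the mouse. The 7 genes were taken by symbol (Cdkn1a, Cdkn1b, Cdkn1c, Cdkn2a, Cdkn2b, Cdkn2c and Cdkn2d) from a table of 23880 genes, and their transcripts were followed in the gastrocnemius, a hindlimb muscle of mostly fast fibres, over 6 ages. RNA-Seq was done on 50 male wild-type C57BL/6JRj mice, 1 library per mouse, with 8 mice each at 8, 18, 22 and 24 months and 9 mice each at 26 and 28 months. Sarcopenia is the loss of muscle mass and function with age, and the study treats 8- and 18-month muscle as adult, 22- and 24-month muscle as early sarcopenic, and the 2 oldest groups as sarcopenic. All mice were caged singly, carried no engineered allele, received no agent and were fed the purified diet AIN93M, and animals with overt disease or tumours were left out. The 8- and 18-month mice were put on this diet for at least the last months before dissection. The 22- to 28-month mice had it from late adulthood until dissection. Diet history and age therefore cannot be told apart in comparisons with the younger groups. The 22- and 28-month mice share the start of the diet but not the time on it. That time was longer at 28 months and cannot be told apart from age either. Library totals lay between 13607229 and 21267375 counts per mouse, with age medians from 15332400 at 24 months to 18409500 at 8 months.

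CIP/KIP proteins (p21 from Cdkn1a, p27 from Cdkn1b and p57 from Cdkn1c) bind complexes of several cyclins with their kinases. INK4 proteins (p16 from Cdkn2a, p15 from Cdkn2b, p18 from Cdkn2c and p19 from Cdkn2d) bind the kinases Cdk4 and Cdk6 and keep D cyclins away from them. Both routes leave the retinoblastoma protein unphosphorylated, so that E2F factors stay silent and DNA synthesis does not begin. In skeletal muscle p21, p57 and p18 are known from myoblasts leaving the cell cycle as they fuse, and p21 and p16 are widely used as marks of senescent cells. Fibre nuclei are postmitotic, and in whole-muscle RNA fewer cells of a type and less RNA per cell cannot be told apart.

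The sample type was checked against 9 transcripts of muscle fibres, all of which were detected in every mouse. Their summed level was 142512 to 185424 CPM (counts scaled to a common library total) at 8 months and 100570 to 210463 CPM at 28 months, and Myh4, the fast type IIb myosin heavy chain, was the most abundant of them at 28 months with a median of 65834 CPM.

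The genes lie apart in the genome except for one close pair (GRCm38 coordinates, GENCODE gene spans). Cdkn1a (ENSMUSG00000023067) is at chr17:29090976-29100727 on the plus strand, Cdkn1b (ENSMUSG00000003031) at chr6:134920401-134925513 on the plus strand, and Cdkn1c (ENSMUSG00000037664) at chr7:143458339-143461050 on the minus strand. Cdkn2a (ENSMUSG00000044303) at chr4:89274471-89294653 and Cdkn2b (ENSMUSG00000073802) at chr4:89306299-89311039 are neighbours on the minus strand with 11645 bases between them. Cdkn2c (ENSMUSG00000028551) is farther along that chromosome, at chr4:109660876-109667189 on the minus strand, and Cdkn2d (ENSMUSG00000096472) is at chr9:21288410-21291407 on the minus strand. Cdkn2a has separate starts for p16INK4a and for p19ARF, a product of another reading frame that acts on Mdm2 instead of the kinases, and the counts per gene sum both.

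Because Cdkn1a and Cdkn2b were the members that moved most with age, the 250 bases before their starts are shown (RefSeq starts, GRCm38.p6). The first is the upstream Cdkn1a start, chr17:29090729-29090978, plus strand, of which 3 bases lie in an annotated exon. The next is the downstream Cdkn1a start, chr17:29093519-29093768, plus strand, which lies within the gene span and in no annotated exon. The last is Cdkn2b, chr4:89311033-89311282, minus strand, of which 7 bases lie in an annotated exon. Capitals mark matches on either strand to the p53 decamer (10 bases, the repeat unit of p53 response elements) or to the GC box GGGCGG.

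Cdkn1a upstream start: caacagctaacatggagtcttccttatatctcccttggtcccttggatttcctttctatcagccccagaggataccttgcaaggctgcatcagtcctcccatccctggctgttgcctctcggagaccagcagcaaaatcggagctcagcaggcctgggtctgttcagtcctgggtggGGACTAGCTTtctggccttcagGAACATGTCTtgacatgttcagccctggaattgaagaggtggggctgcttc

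Cdkn1a downstream start: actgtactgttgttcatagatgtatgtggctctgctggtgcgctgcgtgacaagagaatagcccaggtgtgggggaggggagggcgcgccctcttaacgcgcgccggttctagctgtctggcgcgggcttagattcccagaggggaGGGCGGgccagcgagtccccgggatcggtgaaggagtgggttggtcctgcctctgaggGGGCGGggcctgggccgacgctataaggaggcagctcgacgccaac

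Cdkn2b start: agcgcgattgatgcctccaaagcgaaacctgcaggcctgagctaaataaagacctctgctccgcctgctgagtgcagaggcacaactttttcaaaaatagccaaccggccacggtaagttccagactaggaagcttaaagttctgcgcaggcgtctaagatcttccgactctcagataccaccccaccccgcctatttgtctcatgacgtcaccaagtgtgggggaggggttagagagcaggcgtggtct

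The upstream Cdkn1a window held 2 decamer matches, beginning 73 and 51 bases before the start, and no GC box, whereas the downstream window held 2 GC boxes, at 104 and 46 bases before the start, and no decamer. The Cdkn2b window held neither. RefSeq windows were matched for 6 of the 7 genes (9 windows in all): 5 windows held a GC box, 2 held the p53 decamer (the other one being that of Cdkn2d), 2 held an E-box (CANNTG) and 0 held the TATA box TATAAA or the FoxO site GTAAACA. Among 32851 mouse promoter windows of the same length, 32.7% held the GC box, 7.13% the p53 decamer, 66.2% the E-box, 12.4% the TATA box and 3.17% the FoxO site. These matches describe letters in the windows and are not evidence of binding.

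Compared per length in TPM, a unit in which counts are divided by transcript length and scaled to the same total in every library, 5 of the 7 genes were expressed at a similar level in young adult muscle and 2 were far lower. At 8 months the median level was 24.0 TPM for Cdkn1c, 18.4 TPM for both Cdkn1a and Cdkn1b, 15.7 TPM for Cdkn2c and 15.6 TPM for Cdkn2d. Cdkn2b followed at 1.95 TPM and Cdkn2a at 0.115 TPM. Most ranges of the 5 higher genes overlapped at 8 months (for example 7.77 to 25.2 TPM for Cdkn1a and 19.1 to 34.4 TPM for Cdkn1c). The range of Cdkn1c lay wholly above that of Cdkn2c, 13.7 to 18.6 TPM. No mouse of that age had Cdkn2b above 2.17 TPM.

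The order changed at the top with age. Cdkn1c was the highest member in 6 of 8 mice at 8 months, and Cdkn1a was the highest in 6 of 8 mice at 24 months, 9 of 9 at 26 months and 7 of 9 at 28 months. The median share of Cdkn1a in the summed TPM of the 7 genes was 19.0% at 8 months, 24.1% at 22 months, 27.9% at 24 months, 44.3% at 26 months and 46.0% at 28 months, where it ran from 24.7% to 81.3% between mice. The summed level of the family had a median of 91.5 TPM at 8 months and 152 TPM at 28 months.

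**Figure D1:**
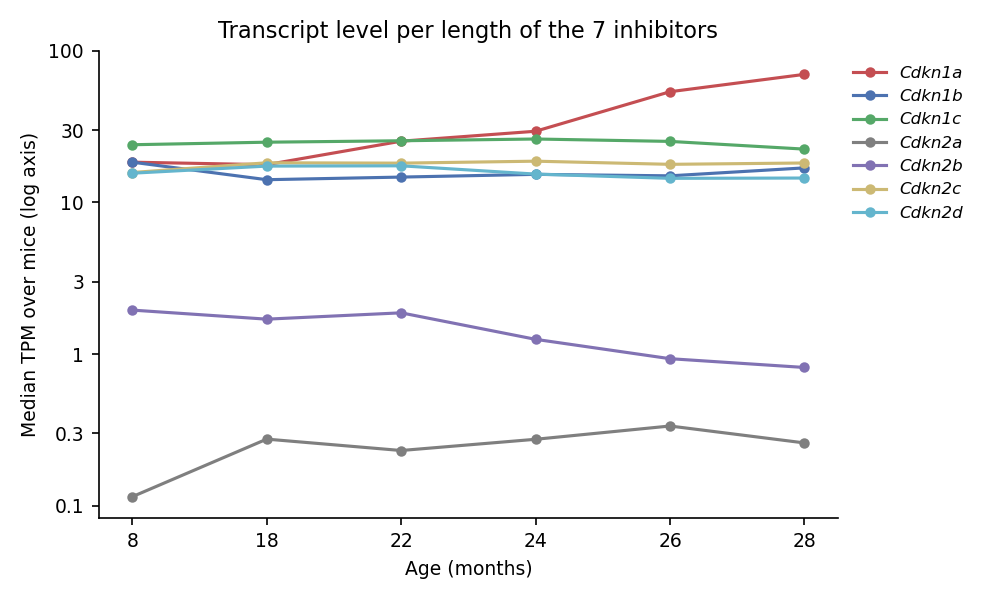
Median TPM (log axis) of each of the 7 inhibitors against age in months, with 8 or 9 mice per age. Cdkn1a leaves the cluster of 5 genes between about 14 and 26 TPM and reaches a median of 69.9 TPM at 28 months, while Cdkn2b falls from 1.95 to 0.816 TPM and Cdkn2a stays lowest at every age.

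To ask when the inhibitors change, each age was compared with 8 months, with the age before it, and 28 with 22 months, in one edgeR fit over 12586 genes that reached 1 CPM in at least 8 mice. Of the 7 members 6 passed this filter, Cdkn2a did not, and a false discovery rate (FDR) below 0.01 was the threshold throughout. Against 8 months, 0 of 6 tested members passed at 18, 22 or 24 months, where 0.0715%, 0.0397% and 0.612% of all genes passed. DESeq2 and every other setting tried also gave 0 at these ages, and the members with an unadjusted p below 0.05 numbered 1, 1 and 4. At 26 and at 28 months 2 of 6 passed, Cdkn1a upwards and Cdkn2b downwards, where 18.4% and 39.6% of all genes passed (28 months: 21% higher and 18.7% lower). The same 2 genes passed between 28 and 22 months, where the background was 27.7%. The share of members called at 28 months was thus close to that of all genes. The comparisons with 8 months share the same 8 control mice.

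Between an age and the next, 0 of 6 members passed from 18 to 22, 22 to 24, 24 to 26 or 26 to 28 months. In all genes 0.00795% passed in the first of these steps and 0% in the other three. The members with an unadjusted p below 0.05 numbered 0, 1, 1 and 0 in the 4 steps, and DESeq2 gave 0 calls of members in each. The median log2 fold change of the 6 tested members at 28 against 8 months was -0.10, beside 0.01 over all genes tested.

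Cdkn1a, whose product p21 is the classical p53 target and stops the cycle after DNA damage, rose most. At 8 months the 8 mice ran from 7.59 CPM (scaled by trimmed mean of M-values, TMM) through a median of 17.3 to 22.5 CPM. The range was 11.6 to 29.96 CPM at 18 months (median 18.3), 18.0 to 29.6 CPM at 22 months (median 23.4) and 21.005 to 59.3 CPM at 24 months (median 26.95). At 26 months it was 20.8 to 98.2 CPM (median 50.3) and at 28 months 25.3 to 239 CPM (median 61.2). All 9 mice of 28 months were above the highest mouse of 8 months, so these groups did not overlap; 8 of 9 mice did so at 26 months, 6 of 8 at 24, 4 of 8 at 22 and 3 of 8 at 18 months.

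The log2 fold change of Cdkn1a against 8 months was 1.91 ± 0.33 (SE) at 26 months, a 3.75-fold rise (edgeR, FDR 5.52e-05), and 2.30 ± 0.34 at 28 months, a 4.93-fold rise (95% interval of the log2 change 1.64 to 2.96, FDR 7.17e-07). At 24 months the estimate was 0.997 (0.34 to 1.66) and missed the threshold with an FDR of 0.0908. Against 22 months, with the same diet start but less time on the diet, 28 months was higher by 1.71 ± 0.33 on the log2 scale (FDR 0.000102). The mean CPM ranked 28, 26, 24, 22, 18 and 8 months from the highest, and no neighbours in this order passed the threshold; the closest was 26 against 24 months (log2 difference 0.91, FDR 0.128).

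The SD of Cdkn1a was 6.36 CPM around a mean of 15.4 at 8 months, 7.69 around 19.98 at 18, 4.64 around 23.2 at 22, 12.51 around 30.8 at 24, 27.04 around 57.9 at 26 and 66.0 around 75.9 at 28 months. The coefficient of variation was 41.4%, 38.5%, 19.97%, 40.7%, 46.7% and 87.0% in the same order. Replicate 2 of 28 months, with 239 CPM, stood far from the next mouse at 94.8 CPM. Without it the SD at 28 months was 26.9 CPM around a mean of 55.6, a coefficient of variation of 48.5%. At 24 months the SD was 5.28 CPM (19.8% of the mean) without replicate 1, the highest mouse of that age. Without replicate 2 of 28 months the log2 fold change was 1.84 against 8 months, still past the threshold, and the difference between 28 and 26 months turned from 0.39 to -0.06, neither of which passed. That mouse had the lowest Cdkn1c (9.17 CPM) and Cdkn2b (0.268 CPM) of its group and, of all 50 mice, the lowest summed level of the 9 fibre transcripts (100570 CPM) and the highest of 10 macrophage markers (357 CPM). Their part in its Cdkn1a level was not tested.

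**Figure D2:**
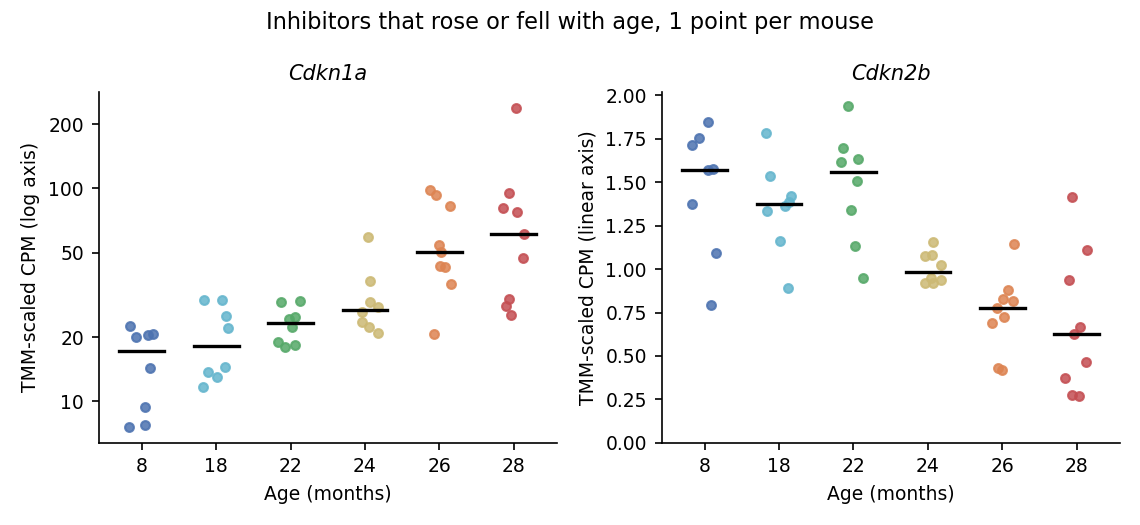
TMM-scaled CPM of Cdkn1a (log axis) and Cdkn2b (linear axis from 0) in each mouse against age in months, 1 point per mouse, lines at the median of 8 or 9 mice. Cdkn1a medians go from 17.3 at 8 months to 61.2 CPM at 28 months with no overlap between those ages, and Cdkn2b medians go from 1.57 to 0.626 CPM with overlap.

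Cdkn1b, whose product p27 keeps quiescent cells out of the cycle, was lower in the older mice than at 8 months by a small amount that no comparison with 8 months called. The 8-month mice ran from 27.3 through a median of 34.8 to 44.3 CPM. The medians were 26.8 CPM at 18 months (23.5 to 31.2), 26.9 at 22 (25.5 to 31.9), 28.8 at 24 (23.8 to 32.2), 27.2 at 26 (25.5 to 39.0) and 29.7 at 28 months (22.9 to 40.7). No older mouse was above the highest 8-month mouse, and the groups overlapped at every age. The log2 difference was -0.34 at 18 months (95% interval -0.53 to -0.16, unadjusted p 0.000571, FDR 0.2996) and -0.15 at 28 months (-0.32 to 0.03, FDR 0.173). Over all 6 ages together, 3 of 6 tested members passed the edgeR F test, Cdkn1a (FDR 1.26e-07), Cdkn2b (1.21e-05) and Cdkn1b (0.00980), where 35.4% of all genes passed. The Cdkn1b call was at the edge of the threshold and was lost without any 1 of 39 of the 50 mice.

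Cdkn1c, the imprinted gene of p57, did not move detectably. Its median was 17.9 CPM at 8 months (14.3 to 28.0) and 16.7 CPM at 28 months (9.17 to 26.0), and the medians of the other ages lay from 17.9 at 18 months to 18.8 CPM at 26 months. The 6 ranges overlapped throughout. The log2 difference of 28 against 8 months was -0.05 with a 95% interval of -0.37 to 0.26, and the FDR over all ages was 0.977.

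Cdkn2b, the p15 gene and a known target of TGF-beta signalling, fell, at a low level. The 8-month mice ran from 0.794 through a median of 1.57 to 1.85 CPM, and the medians were 1.38 CPM at 18 months (0.893 to 1.79), 1.56 at 22 (0.951 to 1.94), 0.984 at 24 (0.919 to 1.16), 0.779 at 26 (0.418 to 1.14) and 0.626 at 28 months (0.268 to 1.42). Thus 5 of 9 mice at 26 months and 6 of 9 at 28 months were below the lowest 8-month mouse, and none was at 18, 22 or 24 months. The log2 fold change against 8 months was -0.95 ± 0.21 (SE) at 26 months (FDR 0.000851) and -1.09 ± 0.22 at 28 months, 2.13-fold lower (95% interval -1.52 to -0.67, FDR 5.52e-05). Between 28 and 22 months it was -1.11 ± 0.22 (FDR 0.000115).

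These values rest on few reads, 4 to 34 counts per mouse. Cdkn2b reached 1 CPM in 7 of 8 mice at each of 8, 18 and 22 months, 4 of 8 at 24, 1 of 9 at 26 and 2 of 9 at 28 months, so that it passed the filter through the ages where it was high. With no filter on low counts the log2 fold change at 28 months was -1.09 (FDR 0.000106). The mean CPM ranked 22, 8, 18, 24, 26 and 28 months from the highest, and no neighbours in this order passed the threshold.

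Cdkn2a, the gene of p16INK4a and p19ARF next to Cdkn2b, was at the edge of detection. It had 0 to 12 counts per mouse, with 0 counts in 9 of 50 mice, and reached 1 CPM in 0 mice. A count of 0 allows a level of up to 3 counts, which covers counting error only. Over the library totals without TMM scaling that is 0.141 to 0.220 CPM, while the other CPM given here are TMM-scaled. The median was 0.0554 CPM at 8 months (0 to 0.271), 0.128 at 18 (0.0646 to 0.417), 0.117 at 22 (0 to 0.2998), 0.143 at 24 (0 to 0.355), 0.172 at 26 (0 to 0.762) and 0.124 CPM at 28 months (0 to 0.501). Every age overlapped with 8 months, and 3 of 9 mice at 26 and at 28 months were above the highest 8-month mouse. Two-sided exact permutation tests of the mean against 8 months gave unadjusted p of 0.183, 0.694, 0.543, 0.157 and 0.271 at 18, 22, 24, 26 and 28 months, so that a difference was not detectable at this depth.

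Cdkn2c, the p18 gene that is switched on as myoblasts differentiate, ran from 10.9 through a median of 13.7 to 17.2 CPM at 8 months. The medians of the older ages lay between 16.1 and 16.9 CPM, with 3 or 4 mice of each age above the highest 8-month mouse. The log2 difference was 0.27 at 24 months (95% interval 0.01 to 0.52, FDR 0.244) and 0.19 at 28 months (-0.06 to 0.43, FDR 0.211), neither past the threshold. Its spread was narrow at 28 months, 13.4 to 17.7 CPM.

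Cdkn2d, the gene of the INK4 protein p19, ran from 8.09 through a median of 11.2 to 16.2 CPM at 8 months and from 7.79 through 9.54 to 12.6 CPM at 28 months. Only 1 of 9 mice of 28 months was below the lowest 8-month mouse. The log2 difference was -0.24 with a 95% interval of -0.45 to -0.03 and missed the threshold (FDR 0.0545).

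**Figure D3:**
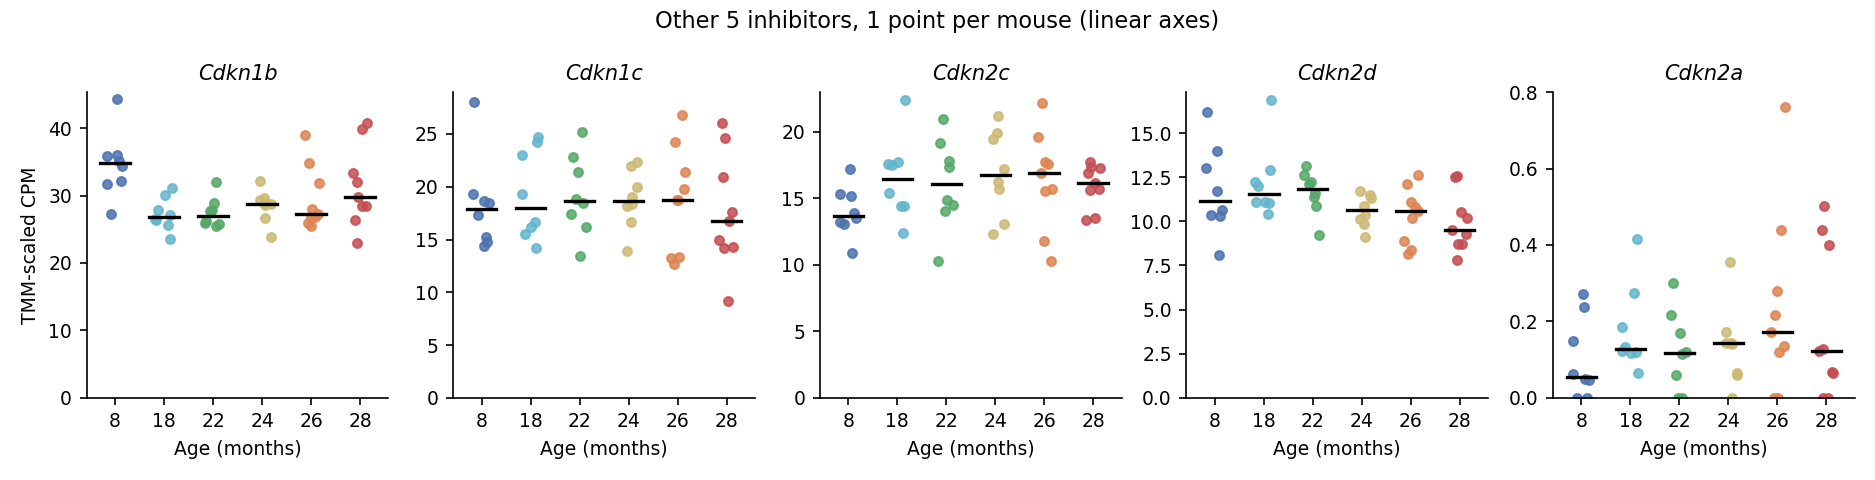
TMM-scaled CPM (linear axes from 0) of Cdkn1b, Cdkn1c, Cdkn2c, Cdkn2d and Cdkn2a in each mouse against age in months, lines at the median of 8 or 9 mice. The ages overlap in all 5 genes, and the Cdkn2a axis ends below 1 CPM.

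**Figure D4:**
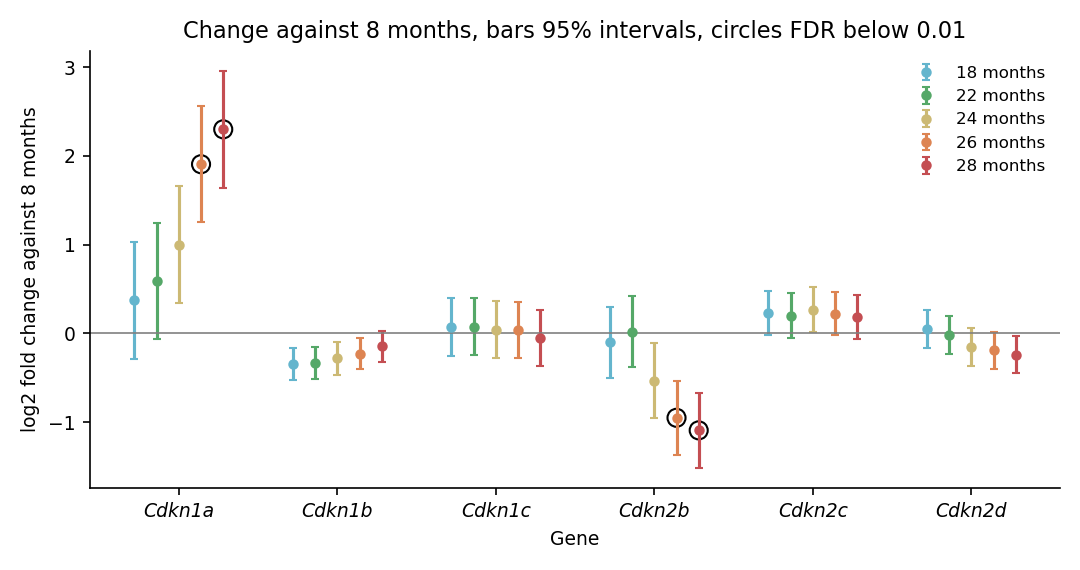
Log2 fold change of the 6 tested inhibitors at 18, 22, 24, 26 and 28 months against 8 months (edgeR), bars 95% intervals, black circles FDR below 0.01. The circles are on Cdkn1a (1.91 and 2.30) and Cdkn2b (-0.95 and -1.09) at 26 and 28 months.

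The gene lists here and below were chosen with earlier results of these data known, so the shares called describe these lists only. Of 12 listed cyclins and kinases of the complexes that the inhibitors act on, 7 were tested, 0 rose and 4 fell at 28 against 8 months. That is 57.1% called beside 39.6% of all genes, with a list median of -0.55 on the log2 scale beside 0.01 for all genes. The 4 that fell were the 4 cyclins tested, of 8 listed. Against 22 months, with the same diet start, 0 of the 7 passed at 28 months (list median -0.28) where 27.7% of all genes did. Of these 7 genes 6 had an unadjusted p below 0.05, DESeq2 gave 0 calls and upper-quartile scaling gave 3, all lower. Ccnd1, Ccnd2 and Ccnd3, the D cyclins that open the cycle with Cdk4 and Cdk6, fell by 0.74, 0.61 and 0.55 on the log2 scale (FDR 0.00279, 0.000622 and 1.74e-05). The Ccnd1 call was lost without replicate 5 of 8 months (FDR 0.0123). Ccne2, a cyclin of Cdk2, fell by 0.77, from 9.54 ± 1.85 (SD, n = 8) to 5.56 ± 1.02 CPM (SD, n = 9; FDR 6.15e-05). Its highest mouse of 28 months, 6.75 CPM, was below the lowest of 8 months, 7.25 CPM. The kinases Cdk4, Cdk2 and Cdk6 had log2 differences of -0.19, -0.30 and 0.31 and did not pass (FDR 0.0128, 0.0332 and 0.203).

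Downstream are the pocket proteins, which the kinases phosphorylate, and the E2F factors they hold. Of 13 such genes 12 were tested, 3 rose and 2 fell, 41.7% called beside 39.6% of all genes, with a list median of 0.09. Rb1, the retinoblastoma gene, went from 19.4 to 25.8 CPM at 8 months (median 22.3) to 29.4 to 59.9 CPM at 28 months (median 43.7), without overlap, a log2 rise of 1.0005 (FDR 9.95e-08). Rbl2, the gene of p130, rose by 1.07 (FDR 2.51e-06), and Tfdp2, an E2F partner, by 1.78 (FDR 2.67e-07). Of 16 proliferation genes 10 were tested, 5 rose and 0 fell, 50% called beside 39.6% of all genes (21% higher), with a list median of 0.34; the 3 with the largest change were Rrm2 (0.99, a ribonucleotide reductase subunit, from 0.952 to 1.88 CPM) and the replicative helicase subunits Mcm7 (0.44) and Mcm6 (0.39). With upper-quartile scaling 2 proliferation genes passed instead of 5. Without replicate 2 of 28 months 2 passed, and 3 passed without replicate 2 of 8 months or replicate 1 or 8 of 28 months. The Rrm2 call was lost without replicate 2 of 28 months (0.72, FDR 0.0269), and that of Mcm6 without any 1 of 10 mice (FDR up to 0.0219). At 28 against 22 months 2 of the 10 passed, 20% beside 27.7% of all genes (list median 0.15). At 26 against 8 months 0 passed with edgeR or DESeq2, where 18.4% of all genes did and 4 of the 10 had an unadjusted p below 0.05.

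Among regulators of Cdkn1a, the p53 gene itself did not pass the test. Trp53 was at 9.98 to 14.6 CPM at 8 months (median 12.8) and 9.54 to 15.0 CPM at 28 months (median 11.8), a log2 difference of -0.06 (FDR 0.546), and its ubiquitin ligase Mdm2 was at 0.18 (FDR 0.0401). Of 27 genes of the p53 pathway 24 were tested, 8 rose and 3 fell, 45.8% called beside the 39.6% background, with a list median of 0.15. Sesn1, a stress-inducible brake on mTORC1, went from 18.8 to 33.5 CPM (median 25.6) to 26.1 to 519 CPM (median 176), a log2 rise of 2.96 (FDR 6.65e-07). Gadd45a, a stress and DNA damage gene also listed for denervation, rose by 2.30 (FDR 2.15e-07), and Trp53inp1 by 2.01 (FDR 1.99e-07).

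Of 22 transcription factors linked to p21 and p27, 21 were tested, 10 rose and 1 fell, 52.4% called beside 39.6% of all genes, with a list median of 0.17. Foxo1, a FoxO factor of atrophy and fasting, rose by 1.82 (FDR 6.46e-05) from a median of 44.5 CPM (20.1 to 72.04) to 180 CPM (37.2 to 329), with overlap. Myc, which represses Cdkn1a in dividing cells, rose by 1.65 (FDR 1.86e-06), and Trp63, the p53 relative, by 1.46 (FDR 6.15e-05). The Trp63 median was 12.7 CPM at 8 months (7.96 to 20.4) and 24.5 CPM at 28 months (15.8 to 120), with overlap.

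The Polycomb complexes keep the Cdkn2a and Cdkn2b locus silent in young cells. Of 17 genes of Polycomb and other regulators of that locus, all were tested, 7 rose and 1 fell, 47.1% called beside 39.6% of all genes, with a list median of 0.18. Without replicate 4 of 8 months, or replicate 2 or 5 of 28 months, 5 passed instead of 8. Cbx2 rose by 1.08 (FDR 0.000502) at a low level, from a median of 0.784 CPM at 8 months to 1.87 CPM at 28 months. Its medians were 1.40 CPM at 22, 1.15 at 24 and 1.08 at 26 months. Ezh1, the methyltransferase of resting cells, rose by 0.77 (FDR 1.98e-06), and Kdm6a, which removes the Polycomb mark, by 0.57 (FDR 1.68e-05). Of 10 genes of the turnover of CIP/KIP proteins 8 were tested, 4 rose and 0 fell, 50% called beside 39.6% of all genes (21% higher), among them the cullin ligase genes Cul4b (0.48, FDR 0.000401), Ddb1 (0.39, FDR 6.95e-05) and Cul1 (0.36, FDR 0.000683).

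Of 24 genes of senescence-associated secretion 16 were tested, 4 rose and 2 fell, 37.5% called beside 39.6% of all genes, with a list median of 0.42 (0.19 without replicate 2 of 28 months). Ccl8, a chemokine, rose most, by 3.10 (FDR 4.43e-08), followed by Igfbp3 (1.44, FDR 1.70e-05) and Hmgb2 (1.14, FDR 6.63e-05). Of 15 denervation genes 13 were tested, 9 rose and 0 fell, 69.2% called beside 39.6% of all genes (21% higher), with a list median of 1.04, among them Runx1 (2.33, FDR 1.74e-08) and Gadd45a. Of 12 glucocorticoid-responsive genes all were tested, 10 rose and 0 fell, 83.3% called beside the same background, with a list median of 1.52, led by the metallothionein genes Mt2 (3.63, FDR 2.30e-06) and Mt1 (2.84, FDR 1.01e-05) and by Ddit4 (2.21, FDR 0.000778), an mTORC1 inhibitor gene. Without replicate 2 of 28 months Mt2 and Mt1 rose by 2.57 and 2.02 (FDR 2.04e-05 and 0.000118). Of 16 clock genes 15 were tested, 3 rose and 3 fell, 40.0% called beside 39.6% of all genes, with Cry2 (1.76, FDR 2.47e-07) and Per1 (0.85, FDR 0.000644) higher and Bhlhe41 (-1.21, FDR 2.39e-06) lower. The hour of dissection is not used here, and its part in these values was not tested. Under upper-quartile scaling, DESeq2 or limma on log2(TPM + 1), 0 of the list genes called here changed direction. The clock list median, 0.04, was -0.02 with upper-quartile scaling.

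The other pathway lists were also compared between 28 and 22 months, which share the diet start and where 27.7% of all genes passed. Glucocorticoid-responsive genes had 10 of 12 called (83.3%, list median 1.45), denervation genes 8 of 13 (61.5%, 0.68), transcription factors linked to p21 and p27 10 of 21 (47.6%, 0.26) and clock genes 7 of 15 (46.7%, 0.11). The p53 pathway had 10 of 24 called (41.7%), pocket protein and E2F genes 4 of 12 (33.3%), senescence-associated secretion 5 of 16 (31.3%) and Polycomb and related regulators 5 of 17 (29.4%). Of the turnover genes 2 of 8 passed (25%), 3 with DESeq2 and 0 with upper-quartile scaling or limma on log2(TPM + 1).

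To see which genes vary with each inhibitor between mice of one age, every tested gene with a mean of at least 5 CPM was ranked by Spearman's rho with it over the 50 mice, after the mean of each age was taken off log2(CPM + 1). These are descriptions, and the values share library, depth and scaling. For Cdkn1a the 5 highest were Spsb1, an adaptor of ubiquitin ligases (rho 0.84), Mt1 (0.83), Mt2 (0.82), the eIF4E kinase gene Mknk2 (0.82) and the kinase gene Pim3 (0.76). With the age means left in, rho was 0.83, 0.78, 0.84, 0.89 and 0.77. All 5 rose with age themselves, Spsb1 by 1.88, Mknk2 by 0.96 and Pim3 by 0.93 on the log2 scale at 28 against 8 months (FDR 1.92e-06, 5.02e-07 and 7.16e-05).

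For Cdkn1b the 5 included the cold-inducible RNA-binding protein genes Rbm3 (0.73) and Cirbp (0.69), Zfp956 (0.71) and the Polycomb gene Cbx7 (0.69). Pooled over ages these 4 were at 0.42, 0.37, 0.46 and 0.38, and all 4 rose between 8 and 28 months, by 0.43 (Cbx7) to 0.97 (Rbm3) on the log2 scale. Cdkn1c varied most closely with Schip1 (0.70), Gm21949 (0.67), Rpn1 (0.65), Mrln (0.65), the gene of the calcium pump inhibitor myoregulin, and Mydgf (0.62).

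Among the INK4 genes, Cdkn2c varied with Fbxo17 (0.76), Stk25 (0.76), the Z-disc gene Myoz1 (0.76), Ube2d1 (0.75) and Acbd4 (0.74). Cdkn2d varied with Zfp787 (0.76), Glrx5 (0.70), Lsm1 (0.69), Acot7 (0.68) and Mrps12 (0.68), the last a mitochondrial ribosome gene. The values for Cdkn2b, with its low counts, were lower: Pde6d (0.59), Fbxo17 (0.58), 5730409E04Rik (0.57), Abhd12 (0.57) and Jtb (0.56). The 15 pairs of tested members had rho from -0.49 (Cdkn1a with Cdkn2b) to 0.46 (Cdkn2b with Cdkn2d) within age.

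**Figure D5:**
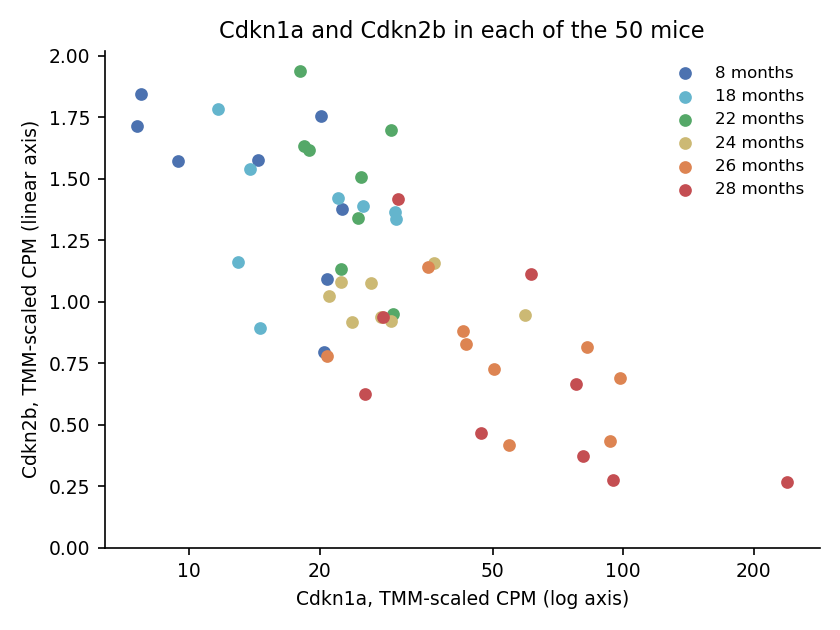
TMM-scaled CPM of Cdkn1a (log axis) against Cdkn2b (linear axis from 0) in the 50 mice, 1 point per mouse, coloured by age. All 9 mice of 28 months lie to the right of the highest 8-month mouse, and the mouse with 239 CPM of Cdkn1a has the lowest Cdkn2b, 0.268 CPM.

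Markers of other cells moved with age beside these genes. The summed level of 8 fibroblast markers had a median of 1441 CPM at 8 months (1252 to 1749) and 845 CPM at 28 months (776 to 1109), without overlap; 5 of 8 fell, and Dcn was the most abundant (712 and 628 CPM). That of 6 adipocyte markers went from 181 CPM (65.4 to 232) to 67.6 CPM (42.4 to 109.6) with 5 of 6 falling, Cfd being the most abundant (90.8 and 41.1 CPM) and Lep at 0 in at least 1 mouse of 28 months. That of 10 macrophage markers went from 139.9 CPM (99.4 to 175) to 223 CPM (147 to 357) with 5 of 10 rising, led by Csf1r (26.9 CPM) at 8 and Cd163 (41.0 CPM) at 28 months; 3 passed without replicate 6 of 8 months or replicate 2 of 28 months. The shares called, 62.5%, 83.3% and 50%, stand beside 39.6% of all genes. Against 22 months, with the same diet start, 4 of 8 fibroblast and 2 of 6 adipocyte markers fell at 28 months and 1 of 10 macrophage markers rose. These shares, 50%, 33.3% and 10%, stand beside 27.7% of all genes. At 22 months the summed medians were 1167 CPM for fibroblast, 98.3 CPM for adipocyte and 175 CPM for macrophage markers. Between 22 and 8 months 0 of 8, 0 of 6 and 0 of 10 of these markers passed, beside 0.0397% of all genes.

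Of 7 endothelial markers 1 fell (median sums 286 and 267 CPM; Cdh5 at 75.1 CPM leading at 8 and Pecam1 at 76.3 CPM at 28 months), and of 7 Schwann cell markers 1 rose and 1 fell (199 and 127 CPM, with Pmp22 at 39.5 CPM leading at 28 months). Of the Schwann cell markers 1 passed without replicate 8 of 8 months and 4 without replicate 8 of 28 months. Of 7 satellite cell markers 6 were tested, 3 rose and 1 fell; Des, a fibre gene too, made up nearly all of their sum (3346 and 4305 CPM), and the other 6 summed to 34.6 CPM at 8 and 41.2 CPM at 28 months. Calcr was at 0 in at least 1 mouse of 28 months. The 9 lymphocyte markers summed to 1.01 and 1.64 CPM and none passed the filter; Cd3d (0.252 CPM) led at 8 and Cd79a (0.375 CPM) at 28 months, and Cd3e, Cd3g and Ms4a1 were among those at 0 in at least 1 mouse of both ages. Of the 9 fibre markers Myh1 rose and Tnnc2 fell, calls that were lost without any 1 of 10 and of 6 mice (FDR up to 0.0236 and 0.0162), and the summed median was 152840 CPM at 8 and 165130 CPM at 28 months. Of those tested, 14.3% of endothelial, 28.6% of Schwann cell, 66.7% of satellite cell and 22.2% of fibre markers were called at 28 against 8 months, beside 39.6% of all genes. At 28 against 22 months the shares were 14.3%, 14.3%, 16.7% and 11.1%, beside 27.7%. The part of these cells in the Cdkn1a and Cdkn2b values was not tested.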

How the data were processed

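The authors deposited whole-number counts per gene and, per gene, TPM for 50 gastrocnemius libraries. Per the labels and the methods of the study, poly(A) RNA was sequenced paired-end from stranded libraries, adapters were removed with Cutadapt 1.9.1 and reads were assigned with kallisto 0.43.1 to protein-coding transcripts (GRCm38); a read that matched several transcripts was split among them, and values were summed per gene, so transcripts of one gene cannot be separated here and reads of near-identical genes may be shared. All sample columns were used. The 7 genes, the gene lists and the tests were chosen with earlier results of these data known.

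A gene entered the tests when 8 mice or more reached 1 CPM (12586 of 23880; 1764 had no count). Testing was with edgeR 4.0.16 (R 4.3.3): TMM scaling, 1 quasi-likelihood fit over all 6 ages, Benjamini-Hochberg adjustment over all genes tested, FDR below 0.01. The SE is the log2 fold change over the square root of F, and 95% intervals are 1.96 SE. CPM in the text are TMM-scaled, except the floor for a count of 0 of Cdkn2a, which uses unscaled library totals. Cdkn2a, below the filter, was tested by two-sided exact permutation (scipy 1.17.1). Intervals and floors cover counting error or the spread between mice, as named. Genes named besides the inhibitors are Cdk4, Cdk6, Cdk2, Ccnd1, Ccnd2, Ccnd3, Rb1, Trp53 and Mdm2, up to 3 per list with the largest change among those past FDR 0.01 at 28 against 8 months, and the 5 genes of highest rho per member; marker genes named are the most abundant, those at 0 and, for fibres, both that passed. A few genes that these rules name are not reported here.

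Alternatives were DESeq2 1.42.0, upper-quartile scaling, a likelihood ratio test, no filter, limma 3.58.1 on log2(TPM + 1) and log2(TPM + 0.1), only the 2 ages compared, a replicate block, and leaving out each mouse. Scripts were tested on simulated data. No 2 of the 184 pairs of mice of one age agreed within counting noise.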

Additional observations from a re-analysis of the deposited data

Results flagged for a closer look

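In 42 groups (7 genes at 6 ages, TMM-scaled CPM), 4 had a mouse far from the others by Dixon's test at its 95% level, which chance alone flags in about 1 group in 20. For Cdkn1a, replicate 1 of 24 months was at 59.3 CPM with the next mouse at 36.7 CPM. Replicate 2 of 28 months was at 239 CPM with the next mouse at 94.8 CPM. For Cdkn1c, replicate 3 of 8 months was at 28.0 CPM with the next at 19.3 CPM. For Cdkn2d, replicate 2 of 18 months was at 16.9 CPM with the next at 12.9 CPM.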

How the results depend on the processing

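No member's call at FDR 0.01 changed in any of the 10 comparisons of 2 ages under 8 alternative settings or without each of the 50 mice, and the member counts stayed at 2 in 3 comparisons and at 0 in 7. Cdkn1a at 28 against 8 months kept a log2 fold change of 2.08 to 2.31 over the settings and 1.84 to 2.42 over the mice left out. That of Cdkn2b ranged from -1.14 to -0.60 over the settings and from -1.30 to -0.98 over the mice; the smallest was from limma on log2(TPM + 1), where the added 1 shrinks changes of low values. The call of Cdkn1b over all ages was lost with upper-quartile scaling (FDR 0.0124), with no filter (0.0151) and without any 1 of 39 mice (FDR up to 0.0408); members that change with age at all then numbered 2 instead of 3. Genes past the threshold at 28 against 8 months, 4988 (52.9% higher), numbered from 3443 with only the 2 ages to 5181 with DESeq2, and from 4336 (without replicate 2 of 28 months) to 5418 over the mice; 44.9% were higher with upper-quartile scaling and 61.4% with limma on log2(TPM + 1).

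The direction turned in differences that passed in no setting, the Cdkn1a difference between 28 and 26 months (0.39) being the one of over 0.1 on the log2 scale. With limma on log2(TPM + 1) these were 0.025 for Cdkn2d (22 against 8 months), 0.0030 for Cdkn1c (24 against 22), 0.066 and 0.059 for Cdkn2c (28 against 22 and against 26) and 0.017 for Cdkn2d (28 against 26), and with log2(TPM + 0.1) they were 0.026, 0.0032, 0.070, 0.063 and 0.018. The cause was not tested. With mice left out in turn, differences that turned sign ranged for Cdkn2d from -0.032 to 0.13 (18 against 8), -0.078 to 0.062 (22 against 8) and -0.10 to 0.014 (22 against 18). For Cdkn2b the range was -0.070 to 0.090 (22 against 8). For Cdkn1c it was -0.0026 to 0.16 (24 against 8), -0.041 to 0.15 (26 against 8), -0.14 to 0.062 (28 against 8), -0.062 to 0.064 (22 against 18), -0.092 to 0.031 (24 against 22) and -0.082 to 0.055 (26 against 24). For Cdkn1b it was -0.024 to 0.038 (22 against 18) and -0.0046 to 0.081 (26 against 24). For Cdkn2c it was -0.093 to 0.046 (22 against 18), -0.0064 to 0.13 (24 against 22), -0.11 to 0.012 (26 against 24), -0.096 to 0.028 (28 against 26) and -0.090 to 0.049 (28 against 22). For Cdkn1a it was -0.061 to 0.53 (28 against 26), the lowest without replicate 2 of 28 months.

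Replicate numbers recur at each age but do not pair the mice: deviations of same-numbered mice correlated at a median of 0.051 over 121 pairs (-0.55 to 0.38), against -0.0059 for other pairs, and 8 of 50 mice correlated best with their own number. With the replicate block 4954 genes passed at 28 against 8 months, and Cdkn1c turned to -0.0087 (22 against 18) and 0.031 (26 against 24).

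Depth limits the INK4 locus most: Cdkn2a had at most 12 counts in a mouse and Cdkn2b at most 34. Without a filter, edgeR gave Cdkn2a no call in the 10 comparisons of 2 ages (lowest FDR 0.21, at 26 against 8 months) or over all ages (0.659). The list counts under other scalings (all comparisons) or without a mouse, and the Cdkn1a spread without a mouse, were chosen after seeing the data.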
